A study of Zea mays with 6 samples.

Results

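The 7 genes described here belong to the circadian clock of maize and are 7 of the 39634 genes listed for each library. They were given by gene model, as LHY (GRMZM2G474769), CCA1 (GRMZM2G014902), PRR73 (GRMZM2G095727), PRR59 (GRMZM2G135446), TOC1 (GRMZM2G020081) and the gigantea genes gigz1a (GRMZM2G107101) and gigz1b (GRMZM5G844173). The files describe both LHY and CCA1 as LHY protein and gigz1a as Gigantea 1A, a RefSeq gene table gives the names PRR59, gigz1a and gigz1b, and the names CCA1, PRR73 and TOC1 came with the list. All 7 genes had values in every library and passed the filter on low values.

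RNA was sequenced from leaves of seedlings of the B73 inbred line in 3 conditions. Watered seedlings (W) were the reference, those of S1 were dried in air once for 2 h, and those of S3 went through this drying 3 times, with 22 h of rehydration after each earlier exposure. Every condition has 2 biological replicates, and no genotype other than B73 was used. The study's methods give several plants for each treatment point. The labels give a photoperiod of 12 h and growth rooms at 22 °C, whereas the study's methods give a greenhouse. The study took 2-week-old seedlings from soil and kept their roots in water overnight before the first drying. Drying started in the morning and one cycle of drying and recovery takes 24 h. S1 and S3 leaves were therefore due at a like hour of the day. S3 plants were older and longer out of soil than S1 plants, which cannot be told apart from the number of exposures. The hour at which the W leaves were taken is not given in the sources used here, and for W the hour of sampling and the watering state therefore cannot be told apart.

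The plant clock is a loop of transcriptional repressors that follow each other through the day. LHY and CCA1 are closely related MYB factors whose transcripts peak around dawn and which, in Arabidopsis, repress TOC1 and GIGANTEA by binding the evening element of their promoters. PRR73 and PRR59 are pseudo-response regulators of the day phase, whose Arabidopsis relatives repress LHY and CCA1. TOC1, the last pseudo-response regulator of the series, and GIGANTEA, a plant-specific protein that in Arabidopsis stabilises a blue light receptor, are highest from the late afternoon to the evening. In Arabidopsis TOC1 also binds the promoter of a gene of abscisic acid signalling. Levels of these genes relative to each other are therefore commonly read as a sign of the time of day.

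Expression was deposited as FPKM, fragments scaled by transcript length and by the mapped fragments of the library. Levels can thus be set beside each other between genes of a library. Comparisons between libraries depend on the scaling, and other scalings were tried as well. The test was limma on log2(FPKM + 1) over 20130 genes, those that reached 1 FPKM in 2 or more libraries. A change was called at an adjusted p of at most 0.05 and a log2 fold change of 1 or more in size. The sums of FPKM per library were between 568731 and 672411. The leaf genes pep1, me3, ssu1 and ssu2, which encode C4 and Rubisco enzymes, were between 56.7 and 2113 FPKM in all libraries, with lower values in S3 (56.7 to 935.6) than in W (366.8 to 2028), and the meristem genes kn1 and gn1 were at most at 0.0605 FPKM in any library. The C4 gene ppdk1 is listed at 0 in both S1 libraries and at 5635 to 11253 FPKM in the other libraries. In the S1 libraries pep1 and me3 were at 1238 to 2113 FPKM and ssu1 and ssu2 at 246.9 to 642.0. How the 0 of ppdk1 arose was not tested, and it is not read as a loss of expression. In such bulk samples fewer cells of a type and less RNA per cell cannot be told apart.

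TOC1 rose in dehydrated leaves and was the only one of the 7 clock genes whose change was called. Its transcripts were at 8.61 and 9.90 FPKM in W, at 32.0 and 27.0 in S1, and at 19.7 and 26.3 in S3. All 4 libraries of dehydrated leaves were above both W libraries, and both S3 libraries were below both S1 libraries. Compared with W, S1 was higher by 1.57 on the log2 scale (standard error 0.19, 95% interval 1.13 to 2.01, adjusted p = 0.00166, limma with Benjamini-Hochberg adjustment), and 95.8% of the genes tested changed less in size. For S3 the log2 fold change against W was 1.22 (standard error 0.19, interval 0.78 to 1.66, adjusted p = 0.00193), where 83.4% of the genes changed less. Mean FPKM were 3.19-fold higher in S1 and 2.49-fold higher in S3 than in W. The decline from S1 to S3 of -0.35 (interval -0.79 to 0.09) was not called (adjusted p = 0.178, limma). The S1 call was made under every alternative tried, with log2 fold changes between 1.45 and 1.69. Upper-quartile scaling took S3 against W to 1.00, just under the fold-change threshold, with adjusted p = 0.00563 (limma; 0.0017 to 0.0186 over the alternatives).

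**Figure D1:**
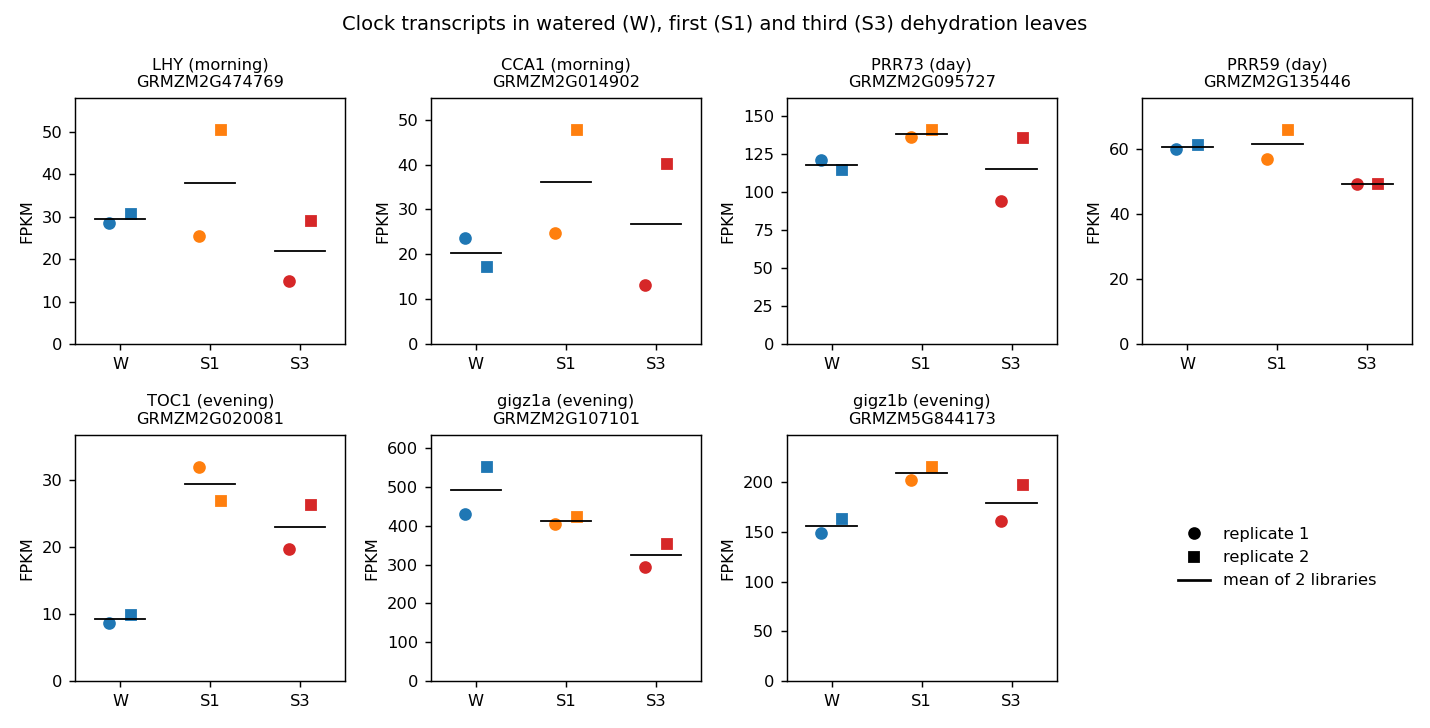
FPKM of the 7 clock genes in each library (circles, replicate 1; squares, replicate 2; bars, mean of the 2 libraries), with each vertical axis starting at 0. TOC1 lies at 8.61 and 9.90 FPKM in W and at 19.7 to 32.0 in the dehydrated leaves, while LHY (25.6 and 50.5 in S1) and CCA1 (13.1 and 40.2 in S3) lie far apart between the replicates of S1 and S3.

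The gigantea genes were the most abundant of the evening genes, and no change of theirs was called. The transcripts of gigz1a were at 430.1 and 552.1 FPKM in W, at 403.4 and 421.7 in S1, and at 294.6 and 353.8 in S3. Its libraries did not overlap between any 2 conditions and were ordered W above S1 above S3, yet no step was called. The log2 fold change from W was -0.24 for S1 and -0.59 for S3 (interval -1.14 to -0.04, adjusted p = 0.0803, limma). For S3 it was -0.83 after upper-quartile and -0.76 after median-of-ratios scaling (adjusted p = 0.0189 and 0.0277, limma). Both passed the limit on p but not that on fold change. The other copy, gigz1b, was at 148.5 and 163.1 FPKM in W, at 202.5 and 215.6 in S1, and at 161.2 and 197.7 in S3. Both S1 libraries were above all others, and the log2 fold change of S1 against W was 0.42 (interval -0.02 to 0.87, adjusted p = 0.182, limma). In S3 against W the change of gigz1b was 0.20, which turned to -0.04 after upper-quartile scaling.

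The ratio of one gene to another in a library does not depend on how the library was scaled. Watered leaves held 2.90 and 3.38 times as much gigz1a as gigz1b, S1 leaves 1.99 and 1.96 times and S3 leaves 1.83 and 1.79 times. The W libraries were thus set apart from the 4 others, which lay close together. The ratio of gigz1a to TOC1 was 50.0 and 55.8 in W and between 12.6 and 15.6 in S1 and S3, and that of gigz1b to TOC1 was 17.3 and 16.5 in W and between 6.32 and 8.18 in the others. These ratios were chosen after the values were seen and were not tested. The gigantea genes are paralogs, and how reads that fit both copies were shared out between them was not tested.

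**Figure D2:**
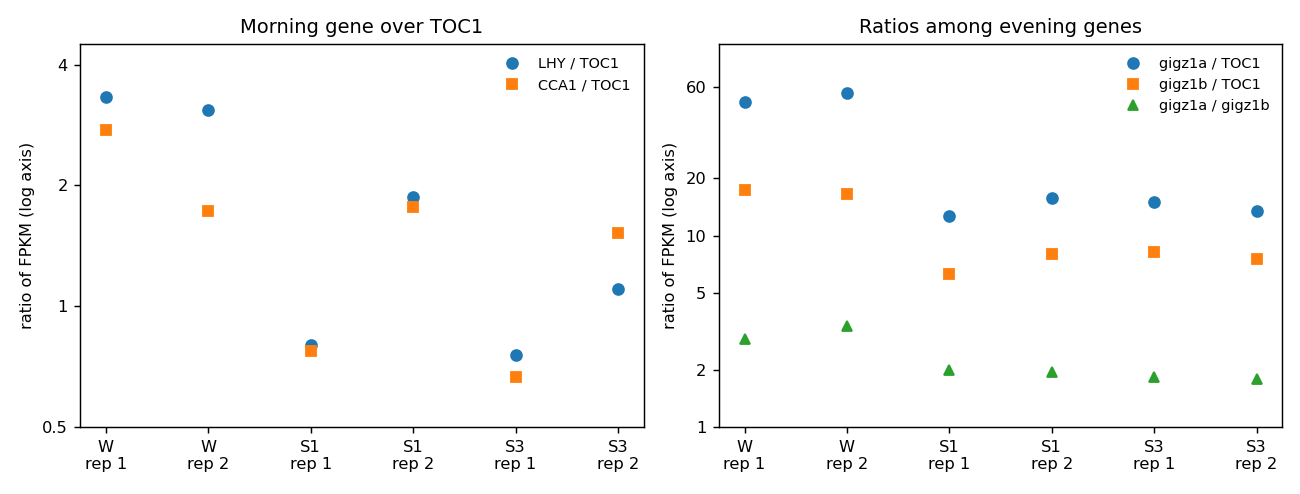
Ratios of FPKM per library on log axes, for LHY and CCA1 over TOC1 (left) and for the gigantea genes over TOC1 and over each other (right). The ratio of gigz1a to gigz1b is 2.90 and 3.38 in the W libraries and 1.79 to 1.99 in the 4 libraries of dehydrated leaves.

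The morning genes LHY and CCA1 differed widely between the replicates of S1 and of S3, and on the log2 scale by more than the means of any conditions did. LHY was at 28.6 and 30.6 FPKM in W, at 25.6 and 50.5 in S1, and at 14.9 and 29.1 in S3. CCA1 was at 23.7 and 17.1 FPKM in W, at 24.8 and 47.7 in S1, and at 13.1 and 40.2 in S3. In both dehydrated conditions the library of replicate 2 was the high one for both genes, and in W the replicates were closer and not in the same order. Replicate 2 was above replicate 1 by 0.95 log2 units for LHY and 0.92 for CCA1 in S1, and by 0.92 and 1.54 in S3, compared with 0.09 and -0.45 in W.

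The median size of this difference over all genes tested was 0.20 log2 units in S1 and 0.23 in S3, and between 95.9% and 99.2% of the genes differed less than LHY and CCA1 in these conditions. A difference of at least 0.9 log2 units, with replicate 2 above, was found in both S1 and S3 for 19 of the 20130 genes (0.0944%), LHY and CCA1 among them. This limit was chosen after the values of LHY and CCA1 were seen. Of the other clock genes, PRR73 was above in replicate 2 of S3 by 0.52 and TOC1 by 0.40, and in S1 PRR73 differed by 0.05 and TOC1 by -0.24. The replicates also differ in read length, according to the study's methods, and the hour of harvest of each replicate is not given in the sources used here. The part of either in this difference was not tested.

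**Figure D3:**
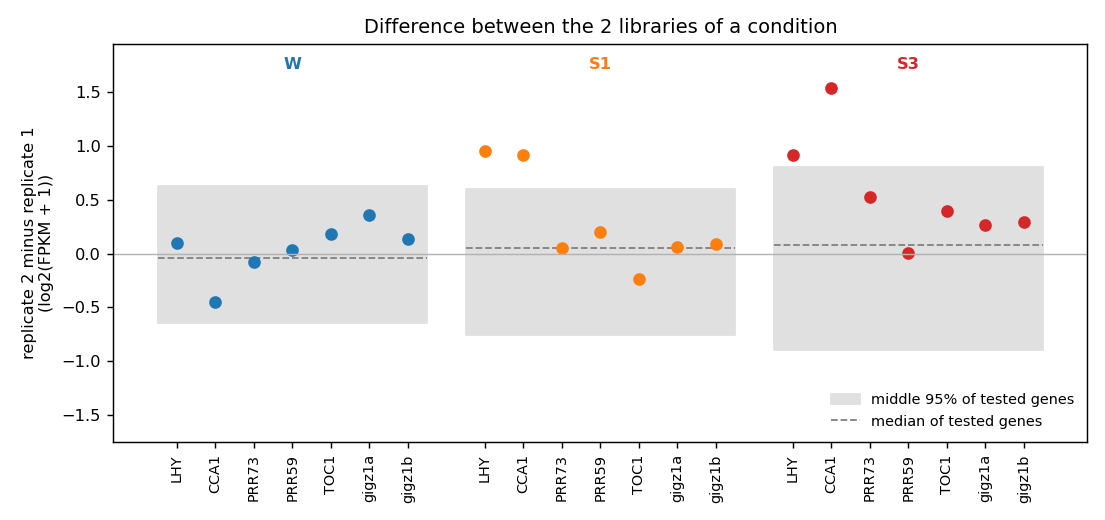
Difference between replicate 2 and replicate 1 in log2(FPKM + 1) for each clock gene and condition. Grey bands span the middle 95% of the genes tested and dashed lines mark their median. LHY and CCA1 lie above the band in S1 (0.95 and 0.92) and in S3 (0.92 and 1.54) and inside it in W.

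With this spread no change of a morning gene was called. The log2 fold change of LHY was 0.27 in S1 against W (interval -0.58 to 1.13) and -0.76 in S3 against S1 (interval -1.61 to 0.10, adjusted p = 0.143, limma). For CCA1 the values were 0.74 (interval -0.41 to 1.90, adjusted p = 0.351) and -0.55 (interval -1.70 to 0.60, adjusted p = 0.412). These intervals include 0 and reach beyond a 2-fold change, so they show neither a change nor a steady level. From S1 to S3 the values moved with each library of these conditions. Without replicate 2 of S3 both genes were called lower in S3 than in S1, by -1.22 (adjusted p = 0.039, 0.039 to 0.609 over the alternatives) and -1.32 (adjusted p = 0.035, 0.035 to 0.923 over the alternatives, limma). Without replicate 1 of S3 the changes were -0.30 for LHY and 0.22 for CCA1, neither called. Without replicate 1 of S1 they were -1.23 (adjusted p = 0.0583, limma) and -1.01, and without replicate 2 of S1 they were -0.28 and -0.094, again not called.

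The gene models GRMZM2G474769 and GRMZM2G175265 are listed as synonyms of one RefSeq gene, so LHY is entered in the files as separate models. The second model, looked up after the values were seen, was at 30.0 and 38.8 FPKM in W, at 34.7 and 69.6 in S1, and at 19.5 and 43.2 in S3. It was thus also high in replicate 2 of S1 and S3, at 1.05 to 1.48 times the level of the first model. Reads of one gene lie behind both models, so the second is not independent evidence.

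Relative to TOC1, the morning genes were lower in most libraries of dehydrated leaves. LHY was at 3.32 and 3.09 times the level of TOC1 in W, at 0.80 and 1.87 times in S1, and at 0.76 and 1.11 times in S3. CCA1 was at 2.76 and 1.73 times the level of TOC1 in W, at 0.77 and 1.77 times in S1, and at 0.67 and 1.53 times in S3. The ratio of LHY to TOC1 separated W from the other conditions without overlap. That of CCA1 did not, because replicate 2 of S1 lay above replicate 2 of W. TOC1, the divisor of both ratios, was itself higher in all libraries of dehydrated leaves, so the ratios are not separate from its rise. LHY alone overlapped between W and each of the other conditions. These ratios were not tested. When LHY and CCA1 were averaged against all 3 evening genes, morning minus evening on the log2 scale was -1.86 ± 0.29 for W, -1.93 ± 0.68 for S1 and -2.28 ± 0.64 for S3 (SD, n = 2). By this measure the conditions overlapped, and the libraries of replicate 1 in S1 and S3 were the lowest, at -2.41 and -2.73.

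For the day genes PRR73 and PRR59 no change was called in any comparison. PRR73 was at 120.8 and 114.4 FPKM in W, at 136.1 and 140.8 in S1, and at 94.0 and 135.7 in S3. Both S1 libraries were above both W libraries. They were above replicate 2 of S3 only because the S3 values were multiplied by 0.993, since it was deposited at 136.6 FPKM. No change was called, with 0.23 in S1 against W (interval -0.26 to 0.72) and -0.29 in S3 against S1 (interval -0.78 to 0.20). PRR59 was at 59.9 and 61.1 FPKM in W, at 56.9 and 65.7 in S1, and at 49.0 and 49.1 in S3. Its S3 libraries were below all others, by -0.30 against W (interval -0.66 to 0.06, adjusted p = 0.16, limma). After upper-quartile and median-of-ratios scaling this was -0.53 and -0.46 (adjusted p = 0.0164 and 0.0318, limma). Against S1 PRR59 in S3 was then at -0.42 and -0.45 (adjusted p = 0.0411 and 0.038, limma). These changes passed the limit on p but not that on fold change. In S1 against W the intervals of PRR59 (-0.34 to 0.37) and of PRR73 lay within a 2-fold change.

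Over the 7 genes, 1 was called in S1 against W, compared with 9.04% of all genes tested, and 1 in S3 against W, compared with 22.0%. With an unadjusted p of at most 0.05 in S3 against W there were 2, TOC1 and gigz1a, compared with 50.4%. Between S3 and S1 limma called 0 of the 7, compared with 18.4% of all genes tested, and 0 had an unadjusted p of at most 0.05, compared with 47.6%. In S1 against W the libraries of 4 clock genes (CCA1, PRR73, TOC1 and gigz1b) lay above those of W without overlap and those of gigz1a below, compared with 31.6% of all genes tested above and 31.7% below. From S1 to S3 the libraries of 5 clock genes lay lower without overlap, compared with 28.3%, and those of 0 higher, compared with 42.1%. PRR73 was among these 5 only after the S3 values were multiplied by 0.993, and its libraries overlapped as deposited. In S3 against W 1 clock gene lay higher without overlap, compared with 46.5%, and 2 lower, compared with 27.4%. All 7 clock genes had a change from S1 to S3 below 0, also after both other scalings, with a median of -0.35, while 57.8% of all genes tested lay above 0, with a median of 0.11. The 7 changes come from the same libraries and are not separate observations. Without replicate 1 of S3 the change of CCA1 was 0.22 and that of PRR73 was -0.028. In S3 against W the median of all genes tested was 0.16, so that TOC1 was 1.06 above it and gigz1a was lower than it by 0.75 (-0.75).

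**Figure D4:**
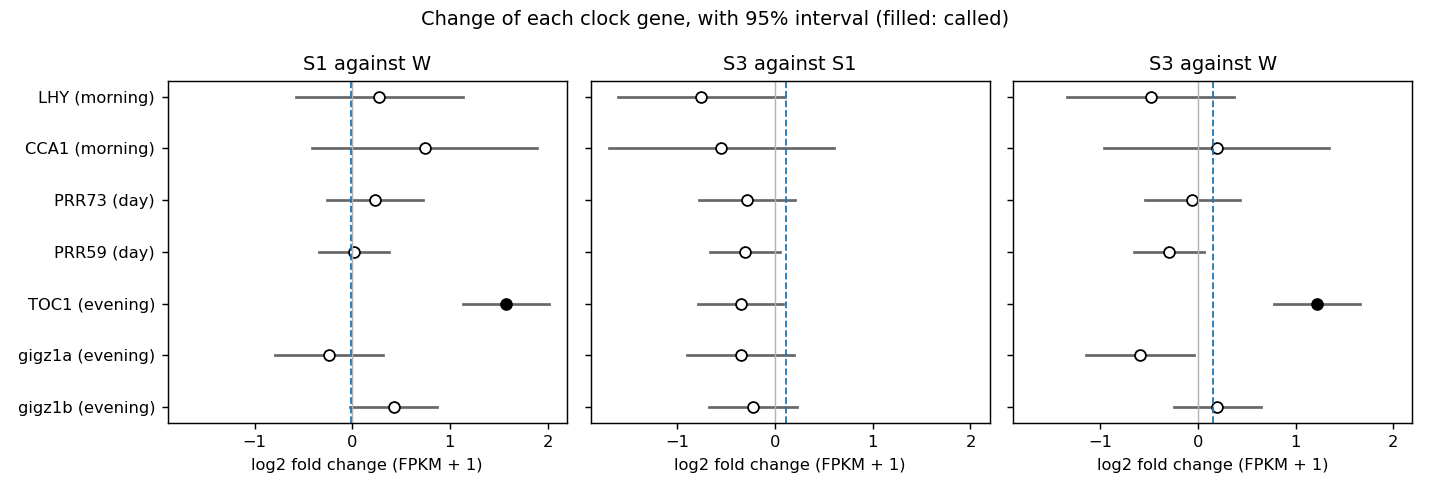
Log2 fold change of each clock gene in the 3 comparisons, with 95% intervals (lines). Filled points were called, the grey line marks 0 and the dashed line the median of all genes tested. TOC1 is the only gene called, at 1.57 in S1 and 1.22 in S3 against W, and all 7 points of S3 against S1 lie below 0 without a call.

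Other clock genes were sought by phrases in the deposited descriptions, and 2 genes were found, both described as EARLY flowering 4 protein, a part of the evening complex that in Arabidopsis represses PRR genes at night. Clock genes whose descriptions lack the phrases are missed by this search, as the second LHY model was. GRMZM2G359322 was at 1.87 and 1.51 FPKM in W, at 6.87 and 3.63 in S1, and at 1.91 and 0.605 in S3. Its S1 libraries were above all others, with a change of 1.17 log2 units from W that was not called (adjusted p = 0.0552). From S1 to S3 it fell, with a log2 fold change of -1.48 (standard error 0.34, adjusted p = 0.0124, limma). Without replicate 1 of S1 the latter was -1.10 and was not called (adjusted p = 0.0796, 0.00486 to 0.0796 over the alternatives). The former was called with only the W and S1 libraries fitted (adjusted p = 0.0232), without replicate 1 or replicate 2 of S3 (0.0233 and 0.0234) and in a fit with a replicate block (0.0201), and its adjusted p was 0.0201 to 0.25 over the alternatives. GRMZM2G382774 was at 22.7 and 19.5 FPKM in W, at 33.9 and 30.1 in S1, and at 48.3 and 31.2 in S3. All its libraries of dehydrated leaves were above those of W, and its change of 0.85 in S3 against W (standard error 0.22, adjusted p = 0.0177, limma) passed the limit on p but not that on fold change. Without replicate 2 of S3 it was 1.16 and was called (adjusted p = 0.00355, 0.00355 to 0.0992 over the alternatives).

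Among the 5975 genes whose condition means differed by at least 1 log2 unit, 5 had the patterns most like TOC1 over the 6 libraries. They were GRMZM2G078876 (a xylogen protein), GRMZM2G054123 (S-adenosylmethionine synthetase 1), GRMZM2G150906 (stachyose synthase), GRMZM5G872256 and GRMZM2G147014 (dehydrin COR410). Their Pearson r with TOC1 was 0.997 to 0.999 on the log2 scale, which measures likeness of pattern and not of size of change. The dehydrin, a protein of water-stressed cells, was at 3.56 and 4.84 FPKM in W, at 610.8 and 321.2 in S1, and at 116.4 and 221.0 in S3. The pattern is shared by many genes, with an r of at least 0.95 for 277 of the 5975. Within the clock, gigz1b was closest to TOC1 (r = 0.88) and LHY was not close to it (r = 0.08).

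For LHY 1 of the 5975 genes had an r of at least 0.95. The minimum of 1 log2 unit bears on this count, since TOC1 passed it (1.57) and LHY (0.76) and CCA1 (0.74) did not, so that the counts for TOC1 and LHY are not comparable. Among the genes past this minimum the closest to LHY were GRMZM2G062129 (r = 0.97), GRMZM2G173536 (0.92), GRMZM5G887393 (0.90), GRMZM2G703968 (0.90) and GRMZM2G167428 (0.90), none of which has a functional description in the files. GRMZM2G062129 was at 30.9 and 27.3 FPKM in W, at 26.9 and 47.7 in S1, and at 12.2 and 23.7 in S3, again with replicate 2 high in S1 and S3. The second LHY model, which did not pass the minimum (0.74 log2 units), had an r of 0.96. CCA1 had an r of 0.80 with LHY, PRR73 of 0.79 and PRR59 of 0.77. All these r values rest on 6 libraries with 2 per condition, and libraries that share a condition or a cuffdiff run are not independent points.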

How the data were processed

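The members and gene lists were chosen with earlier results of these data known. Reads were aligned with bowtie and tophat to the B73 RefGen_v2 genome, after base calling with CASAVA 1.8.2, and for each library the authors deposited FPKM computed with cuffdiff on the Filtered Gene Set models. A second table of the authors gives FPKM per condition and their own fold changes and q-values, and of these only the S1 values and the gene descriptions were used. The values of W and S1 and those of S3 come from separate cuffdiff runs. The S3 values were multiplied by 0.993, the median quotient of library mean and table value for S1 over 18865 genes of at least 1 FPKM, and 97.5% of these genes lay within 0.5% of it.

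All 6 libraries were fitted with limma 3.58.1 in R 4.3.3 (lmFit, eBayes with a trend, a mean per condition, pseudocount 1) with Benjamini-Hochberg adjustment over 20130 genes. The fit was also run on simulated data with independent noise, which had to return the median size of an added change. Differences shared between genes of a replicate were not simulated. Fold changes on the log2(FPKM + 1) scale understate those of low genes. FPKM hold no counts, so no counting interval is given. Biological replicates are 2 per condition, and an exact test of a single gene could not have reached 0.05. Replicate numbers were taken from the labels.

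The genes named were the 7 members, other clock genes found by phrases in the descriptions, and for LHY and TOC1 the 5 genes with the highest r. Of the markers, gn1 was matched by a synonym in the RefSeq table (assembly Zm-B73-REFERENCE-NAM-5.0), used for names only, and 1 marker is not reported here. Alternatives were other scalings, pseudocounts and filters, S3 without the bridge, other thresholds, only the 4 libraries compared, a replicate block and each library left out. Figures were drawn with matplotlib 3.10.9 in Python 3.11.15. Promoter and protein sequences were not used here.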

Additional observations from a re-analysis of the deposited data

How the results depend on the processing

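The call of TOC1 in S1 against W and the absence of a call for the other 6 clock genes in S1 against W and S3 against W were kept under the alternatives tried. Of 357 values of the clock genes under alternatives, 344 kept their direction and their side of the threshold. Upper-quartile scaling left 0 of the 7 genes called in S3 against W, since TOC1 was then at 1.00. It also turned the sign of PRR59 in S1 against W (-0.11), of CCA1 (-0.035) and of gigz1b (-0.038) in S3 against W, and median-of-ratios scaling turned PRR59 in S1 against W (-0.011). Upper-quartile scaling moved the median of all genes in S3 against W from 0.16 to -0.04, and the genes called there from 2673 higher and 1751 lower to 1982 higher and 2173 lower. Without a fold-change threshold 3214 genes were called in S1 against W, 7467 in S3 against S1 and 8268 in S3 against W, compared with 1820, 3701 and 4424.

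With 1 library left out at a time, 0 to 2 clock genes were called in S3 against S1, and 1242 to 1916, 3412 to 4007 and 4127 to 4644 of all genes in the 3 comparisons. Where only 1 library of a condition was left, it was assumed to vary like the others. Log2 fold changes then ranged from -0.20 to 0.75 for LHY and -0.087 to 0.12 for PRR59 in S1 against W, from -1.32 to 0.22 for CCA1 in S3 against S1, and from -0.58 to 0.96 for CCA1 and -0.32 to 0.21 for PRR73 in S3 against W. Those of the EARLY flowering 4 genes ranged from -0.035 to 0.58 for GRMZM2G382774 in S3 against S1 and from -0.74 to 0.12 for GRMZM2G359322 in S3 against W. Replicates with the same number deviated little in common, with an r across genes of 0.14 between W and S1, -0.09 between W and S3 and 0.06 between S1 and S3, and were not treated as pairs. A replicate block called 1784, 3669 and 4406 genes and changed the call of none of the 7 clock genes. With it the adjusted p was 0.00547 for TOC1 in S1 against W and 0.0541 for LHY in S3 against S1 (limma). The EARLY flowering 4 gene GRMZM2G359322 was called in S1 against W with this block (adjusted p = 0.0201, limma). The cause of these changes was not tested.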

Other observations

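Genes linked to the clock through flowering time were looked up by the word CONSTANS in the deposited descriptions after their values had been seen, and are given without a test. CONSTANS and its relatives are zinc finger factors that in Arabidopsis carry the clock's signal to flowering. The 5 genes found did not share a pattern. GRMZM2G092363 (CONSTANS-like protein CO8) was at 0.993 and 0.566 FPKM in W, at 61.3 and 62.2 in S1, and at 14.6 and 36.8 in S3, so that it was highest in S1. GRMZM2G107886 (CONSTANS-LIKE 16) was at 48.4 and 48.7 FPKM in W, at 25.7 and 20.2 in S1, and at 1.38 and 0.424 in S3, lower in each condition in turn. GRMZM2G038783 (CO6), the most abundant, was at 238.9 and 165.4 FPKM in W, at 300.8 and 349.0 in S1, and at 328.3 and 387.3 in S3. GRMZM2G021777 (CO5) was at 45.6 and 29.4 FPKM in W, at 47.4 and 54.0 in S1, and at 25.6 and 29.4 in S3. GRMZM2G405368, described as constans, was at 7.30 and 7.71 FPKM in W, at 6.97 and 5.82 in S1, and at 15.0 and 10.3 in S3.

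GRMZM2G181030, which the study's annotation relates to the MYB factor LHY, was also looked up after its values were known. It was at 13.0 and 15.5 FPKM in W, at 46.2 and 53.8 in S1, and at 8.87 and 6.39 in S3, so that its S1 libraries were above and its S3 libraries below those of W. The models GRMZM2G005630 and GRMZM2G031139, described as a circadian clock coupling factor, are listed at 0 in all 6 libraries.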
